A study of Mus musculus with 2 samples.

Results

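The cadherin superfamily was followed here through 61 genes on 2 expression arrays, 1 of a Sox11-null and 1 of a wild-type mouse embryo. Members were the genes with a symbol of Cdh plus a number except Cdh5, those with a symbol starting with Pcdh, and Celsr1, Celsr2, Celsr3, Fat1, Fat3 and Fat4. Each had to be the only gene that the platform annotation names for a probe set. This gave 20 Cdh genes, 35 protocadherins and 6 Celsr and Fat genes, with 107 of the 45101 probe sets of the array and 61 of the 18194 genes. One array held RNA from the cerebral cortex of a Sox11(-/-) embryo at E17.5 (embryonic day), and the other that of a Sox11(+/+) littermate at the same age. Both came from a cross of heterozygous parents on a mixed C57BL/6 and 129 background. The labels name no transgene or Cre and do not describe the null allele, and each group is 1 animal. Every difference below is therefore a difference between 2 libraries, and no p-value can be had.

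Cadherins are calcium-dependent adhesion proteins that bind their like on the neighbouring cell. Classical cadherins link through catenins to actin, and cells with different cadherins sort apart, so neural tissue and epithelia carry different members. Protocadherins lack the catenin-binding tail. In neurons the clustered ones give each cell a combination of surface labels, and the Celsr and Fat proteins act in planar polarity. In the cortex N-cadherin holds radial glia together at the ventricular surface and takes part in neuronal migration.

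Sox11 was lower in the null library with all 6 of its probe sets, which kept 16.4% to 47.8% of the wild-type signal. Where these probe sets lie relative to the deleted part is not known here. Xist, the RNA of the inactive X chromosome, had a signal of 155 in the null and 17505 in the wild-type library with its brightest probe set, and the Y-linked Eif2s3y 1838 in the null and 0.814 in the wild-type library. The labels give no sex, but these signals are those of a male null and a female wild-type embryo. Genotype and sex can therefore not be told apart in any difference below. For the beta-actin control probe sets, 3' signal over 5' signal was 1.16 in the null and 1.78 in the wild-type library. The Gapdh control differed less, with 0.82 in the null and 0.92 in the wild-type library. Besides cortical neuron genes (7 of 8 above the median of both arrays), all 8 skeletal muscle, all 10 epithelial and all 8 mesenchymal markers were above it on both arrays, so the signals of cadherins need not come from cortical cells alone. The muscle gene Acta1 had 23519 in the null and 23182 in the wild-type library. Mesenchymal Col1a2 had 26213 in the null and 28003 in the wild-type library. Stmn2, the brightest listed cortical neuron marker, had 10249 in the null and 11577 in the wild-type library. In such bulk RNA, fewer cells of a type and less RNA per cell cannot be told apart.

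None of the 61 members with a measured signal differed by 1.5-fold. A gene counted as measured when the mean of its log2 signals reached the mean of the array medians, a signal of 177, and each gene was read from its brightest probe set. This held for 34 of the 61 members. Of these 34, 0 were 1.5-fold lower in the null library, where 2.49% of the 11974 measured genes were, and 0 were 1.5-fold higher, against 2.46%. At 2-fold the counts were again 0 and 0, and the background was 0.66% lower and 0.284% higher. With so small a background, 0 of 34 does not set the members apart from other genes. With quantile normalization the balance among all measured genes moved to 361 lower and 229 higher, against 298 and 295 as reported. At 1.25-fold, a size chosen after the values were seen, 3 members (8.82%) were lower, against 9.7% of all measured genes, and 4 (11.8%) were higher, against 11.3%. Both shares were near the background. The median difference over the 34 was 0.075 on the log2 scale, with 18 above and 16 below 0, against 0 by construction over all measured genes.

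**Figure D1:**
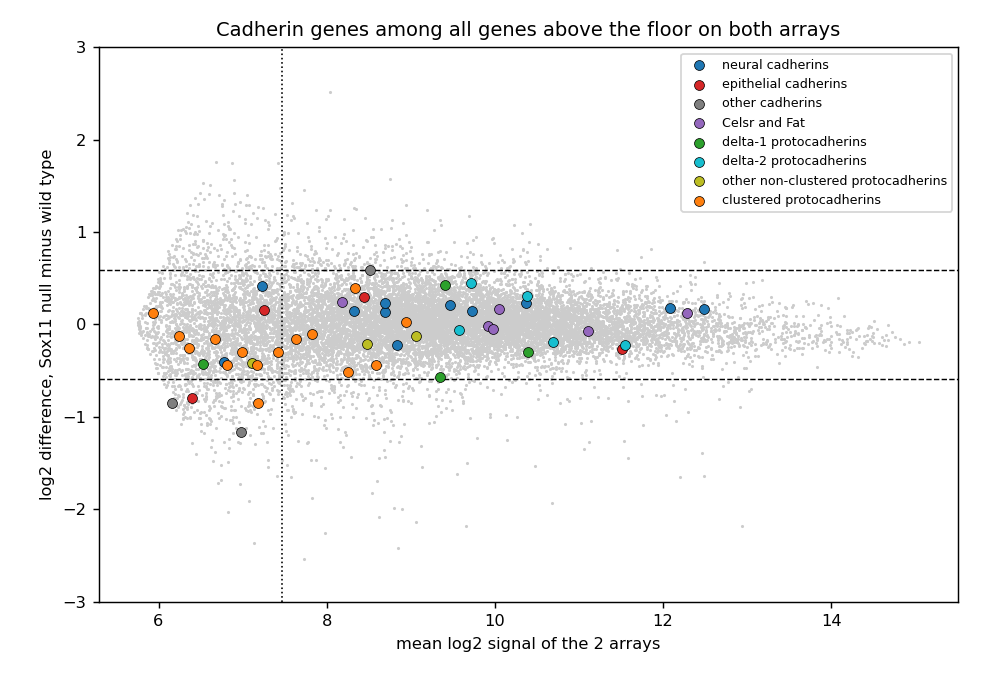
Log2 difference (Sox11 null minus wild type, vertical axis) against the mean log2 signal (horizontal axis) for the 51 member genes above the floor on both arrays, coloured by subfamily, over all 14869 such genes in grey. Dashed lines mark 1.5-fold and the dotted line the measured level. To its right no member lies beyond 1.5-fold, 4 members to its left lie below the lower line, and 4 grey genes lie beyond the axis.

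Measured genes were cut into 3 equal groups by level to show how wide differences are in these libraries. In the dimmest, 95% of differences lay between -0.76 and 0.70, in the next between -0.48 and 0.56, and in the brightest between -0.46 and 0.45. Of the 34 members, 1 lay outside the range of its own group, the protocadherin Pcdh11x. Such ranges mix differences between the embryos with array noise and cannot stand in for replicates.

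The neural cadherins lay mostly on the side of higher signal in the null library by their brightest probe sets. Of 12 members on the array 9 were measured, 8 of them above 0 and 1 below, against 50% above 0 among all measured genes. All 9 were within 1.5-fold, with a median log2 difference of 0.16. Cortical neuron markers lay the other way, 6 of 7 measured below 0 with a median of -0.16 and a summed signal of 25355 in the null and 27818 in the wild-type library. Mesenchymal and meningeal markers lay the same way, 6 of 8 above 0 with a median of 0.20, Foxc2 highest at 0.64, and a summed signal of 65979 in the null and 63837 in the wild-type library. The part of either tissue in the neural cadherin values was not tested. Cdh2 (N-cadherin) had a signal of 4590 in the null and 4105 in the wild-type library, a log2 difference of 0.18. Cdh4 (R-cadherin), the other type I cadherin of this group, had 885 in the null and 810 in the wild-type library (0.15). Both were slightly brighter in the null library by these probe sets, by 1.13-fold and 1.11-fold, but the other measured one of Cdh4 was at -0.21.

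Type II cadherins lack the adhesive tripeptide of type I members and divide brain regions and synaptic partners among themselves. By their brightest probe sets, the 6 measured ones gave the same picture with 1 exception. Of all 9 type II genes above the floor on both arrays, Cdh19 among them, 6 were above 0 and 3 below. Cdh11, a cadherin of mesenchyme and bone that the brain also expresses, had 6035 in the null and 5459 in the wild-type library (0.16). Cdh10 had 757 in the null and 660 in the wild-type library (0.22), Cdh9, which acts at hippocampal mossy fibre synapses, 445 in the null and 384 in the wild-type library (0.23). Cdh8 had 337 in the null and 307 in the wild-type library (0.15), and Cdh22 433 in the null and 399 in the wild-type library (0.14). All of these lay between 0.14 and 0.23 above wild type on the log2 scale. Cdh6 was the exception, with 419 in the null and 496 in the wild-type library (-0.23). Its dimmer probe set, below the measured level, was further down at 109 in the null and 194 in the wild-type library (-0.82). Cdh13 (T-cadherin), which is anchored by a lipid and has no cytoplasmic tail, had 1427 in the null and 1228 in the wild-type library (0.24).

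The remaining 3 neural members were below the measured level. Cdh7 had 172 in the null and 131 in the wild-type library (0.42, but -0.087 and -0.38 by its other probe sets). Cdh20 had 94.7 in the null and 127 in the wild-type library (-0.41), and Cdh18 was at the floor on both arrays. Their directions were mixed, and none was beyond 1.5-fold.

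**Figure D2:**
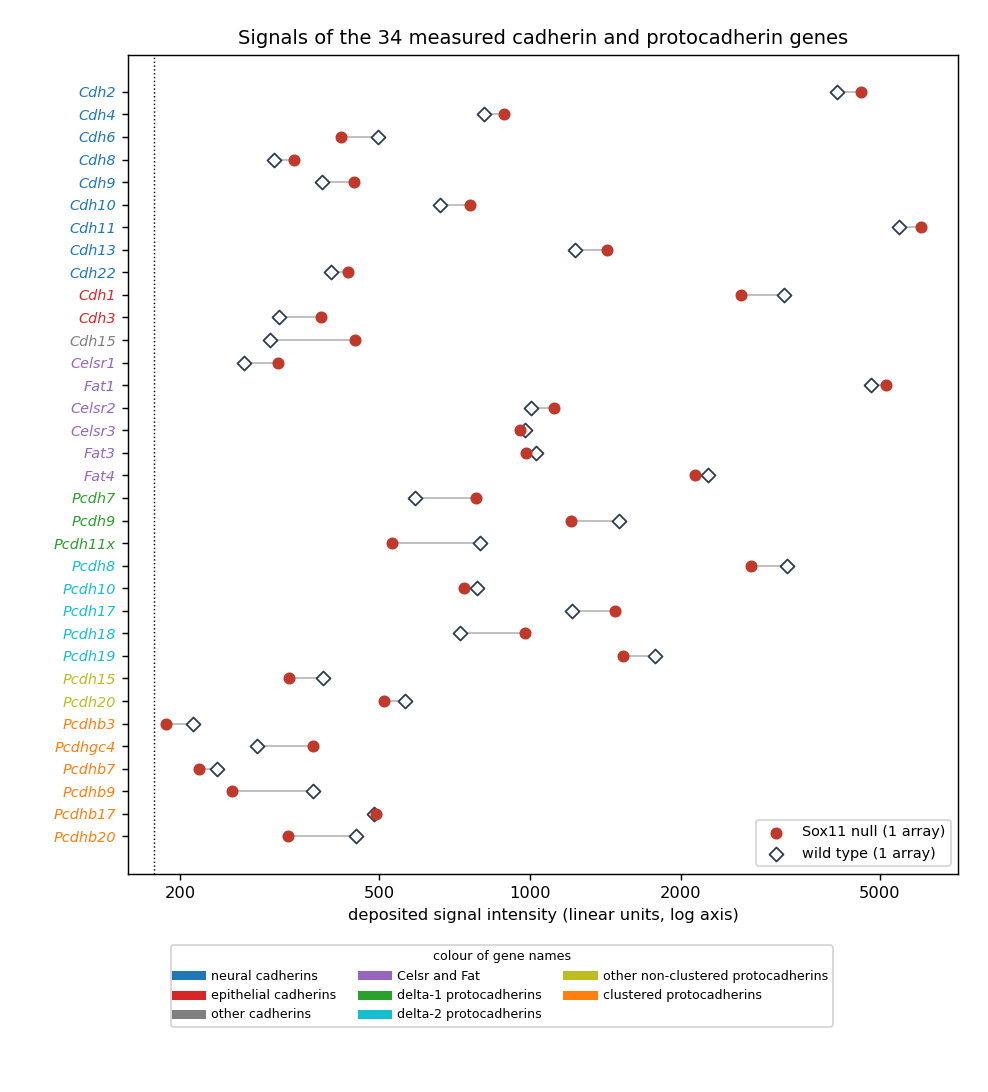
Deposited signal intensity (horizontal log axis) of the 34 measured member genes, with the Sox11-null array as filled circles and the wild-type array as open diamonds. Grey lines join the arrays, the dotted line marks the measured level of 177, and the longest lines belong to Cdh15 and Pcdh11x.

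Several of the neural cadherins had other measured probe sets, and these did not always repeat the value. The other probe set of Cdh2 gave 2141 in the null and 1294 in the wild-type library (0.75), and the dimmest measured one of Cdh13 gave 389 in the null and 219 in the wild-type library (0.85). For Cdh4 and Cdh10 the other measured probe set was below 0, at -0.21 and -0.15, so no direction can be given for these genes. Cdh8 and Cdh11 kept their direction with 0.100 and 0.31.

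Epithelial cadherins showed no common direction. Of 5 members 2 were measured, on opposite sides of 0, so their median log2 difference of 0.017 describes neither gene. The median of the 9 neural ones was 0.16. The difference between these medians was not tested, since each group rests on 1 array a genotype. Cdh1 (E-cadherin), the adherens junction cadherin of epithelia, had 2643 in the null and 3220 in the wild-type library (-0.27). Cdh3 (P-cadherin), of basal epidermis and hair follicles, had 382 in the null and 315 in the wild-type library (0.30), and its other probe set was at the floor on both arrays. These genes are neighbours on chromosome 8 and lay on opposite sides of 0. When its probe sets were averaged without a floor, Cdh3 was at -0.94.

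Of the other epithelial members, Cdh16, the kidney cadherin, had 63.4 in the null and 111 in the wild-type library (-0.80, 1 probe set). Cdh26 had 161 in the null and 146 in the wild-type library (0.16), and Cdh17, the liver and intestine cadherin, was at the floor on both arrays. All 3 were below the measured level. Of the 10 simple and basal epithelial markers all were within 1.5-fold, 7 below 0 and 3 above, with a median of -0.090 and a summed signal of 13852 in the null and 14883 in the wild-type library. Esrp1, an epithelial splicing factor, lay lowest at -0.54 (611 in the null and 898 in the wild-type library). Krt14 was at -0.39 (-0.21 and -0.10 by its other measured probe sets) and Epcam at -0.096. Cldn7 was highest at 0.16, and Krt5, the brightest of the list, was at 0.11. The part of such cells in the Cdh1 value was not tested.

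Transcriptional repressors of E-cadherin were within 1.5-fold by their brightest probe sets, with 4 of 5 measured and a median of -0.056, but some of their other probe sets were not. Snai2 had 1470 in the null and 2062 in the wild-type library (-0.47, and -1.39 by its other measured probe set). Twist1 was at 0.39. Zeb1 was at -0.18, but from 0.019 to 0.55 by its other measured probe sets, and Zeb2 was at 0.070, with others from 0.094 to 0.88.

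The last Cdh genes are markers of particular cells. Cdh15 (M-cadherin), of myoblasts and muscle satellite cells, had 446 in the null and 301 in the wild-type library, a log2 difference of 0.58 that lies at the 1.5-fold line and just under it. It was the largest positive difference among the measured members. Skeletal muscle markers were within 1.5-fold, 6 of 8 above 0, with a median of 0.20 and a summed signal of 74879 in the null and 74127 in the wild-type library. Actn3 was at 0.58, Myod1 at 0.38 and Myog at 0.24. The brightest markers were nearer to wild type, with Acta1 at 0.039, Tnnc2 at -0.016 and Ckm at -0.10. The part of muscle RNA in the Cdh15 value was not tested.

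Cdh19, a type II cadherin of the Schwann cell lineage, was below the measured level, with 83.5 in the null and 190 in the wild-type library, 2.24-fold lower (-1.16, 1 probe set). Of 4 Schwann and neural crest glia markers on the array 3 were measured, all below 0 and within 1.5-fold. The list had a summed signal of 13738 in the null and 16132 in the wild-type library, most of it Fabp7, which radial glia also express. Sox10 was lowest with 240 in the null and 326 in the wild-type library (-0.43, and -0.47 by its other measured probe set). Their part in the Cdh19 value was not tested.

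Cdh23 and Pcdh15 form the tip link of inner ear hair cells. Cdh23 had 53.0 in the null and 96.8 in the wild-type library (-0.85), just above the floor in the null library, and its second probe set was at the floor on both arrays. Pcdh15 was measured, at 330 in the null and 386 in the wild-type library (-0.21). Of 7 cochlear and retinal sensory markers on the array 2 were measured, Otof at 0.39 and Myo7a at -0.023. The list summed to 714 in the null and 672 in the wild-type library, and Pou4f3 and Rcvrn were at the floor on both arrays.

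With Cdh16, Cdh19, Cdh23 and Pcdhb16, 4 of the 27 members below the measured level (14.8%) were 1.5-fold lower, against 8.25% of all 6220 genes at such levels. With Pcdhb5, 1 of 27 (3.70%) was 1.5-fold higher, against 6.67%. These counts are small and rest on dim signals.

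Sox proteins bind short DNA sequences through their HMG domain, so windows at annotated gene starts were searched for AACAAT and AACAAAG on both strands. The windows, from RefSeq on GRCm38.p6, run from 250 bases before to 50 after a gene's start, and 25 of the 61 members had one. Of these, 4 (16%) held a match, Cdh6, Cdh26, Fat1 and Pcdh8, against 17.7% of all 27025 genes with a window. The share is near that of all genes, and a match is a description of letters, not a binding site. Whether each annotated start, that of Fat1 included, is a promoter used in these libraries was not tested. Shown are the windows of the 3 measured genes with a match, 5' to 3' on the strand of the gene, with the match in capitals. They lie at chr15:13173626-13173925 on the minus strand for Cdh6, chr14:79771263-79771562 on the minus strand for Pcdh8 and chr8:44949958-44950257 on the plus strand for Fat1.
Cdh6: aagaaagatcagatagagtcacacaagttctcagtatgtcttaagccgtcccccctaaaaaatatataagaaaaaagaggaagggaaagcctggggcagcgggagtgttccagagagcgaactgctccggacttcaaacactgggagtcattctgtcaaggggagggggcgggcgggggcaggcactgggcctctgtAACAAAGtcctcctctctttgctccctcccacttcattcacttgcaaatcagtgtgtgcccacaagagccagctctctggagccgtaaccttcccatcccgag
Pcdh8: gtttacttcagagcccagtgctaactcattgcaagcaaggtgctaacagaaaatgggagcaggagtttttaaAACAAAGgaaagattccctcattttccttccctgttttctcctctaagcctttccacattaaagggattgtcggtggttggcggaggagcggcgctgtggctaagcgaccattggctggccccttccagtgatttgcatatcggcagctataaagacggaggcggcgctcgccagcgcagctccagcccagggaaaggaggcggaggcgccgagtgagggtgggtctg
Fat1: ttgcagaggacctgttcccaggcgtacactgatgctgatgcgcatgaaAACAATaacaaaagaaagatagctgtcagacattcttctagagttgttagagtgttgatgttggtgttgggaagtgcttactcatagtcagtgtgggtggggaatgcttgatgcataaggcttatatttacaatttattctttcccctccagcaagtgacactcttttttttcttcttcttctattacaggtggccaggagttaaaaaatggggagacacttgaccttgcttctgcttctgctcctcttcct
The match begins at base -53 from the start for Cdh6, -178 for Pcdh8 and -202 for Fat1. Cdh6 and Pcdh8 were below wild type in the null library and Fat1 was above it, all within 1.5-fold.

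E-boxes, written CANNTG, are a class of short sequences that includes sites of muscle regulators such as Myod1 and Myog. They are marked here for Cdh15 alone, chosen because it was the measured member with the largest positive difference. Which forms of CANNTG such regulators bind was not tested. Its window, at chr8:122848124-122848423 on the plus strand of GRCm38.p6, held 4 E-boxes, shown in capitals.
Cdh15: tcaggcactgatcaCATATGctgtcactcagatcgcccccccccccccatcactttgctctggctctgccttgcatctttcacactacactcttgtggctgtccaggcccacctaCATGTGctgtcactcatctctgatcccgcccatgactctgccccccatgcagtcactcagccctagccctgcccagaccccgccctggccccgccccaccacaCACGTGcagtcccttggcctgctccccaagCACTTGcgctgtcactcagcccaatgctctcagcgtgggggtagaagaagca
E-boxes are frequent, and less so among the members. At least 1 was held by 13 of the 25 member genes with a window (52%). Of all 27025 genes with a window, 20265 (74.99%) held at least 1. How many windows hold 4 was not counted. Here too a match is a description of letters, and the part of muscle regulators in the Cdh15 value was not tested.

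Celsr and Fat genes were all measured, and all 6 were within 1.5-fold with a median of 0.051. Celsr1, a planar polarity receptor of progenitors, had 314 in the null and 268 in the wild-type library (0.25). Celsr2 had 1114 in the null and 1004 in the wild-type library (0.17, and 0.55 by its other probe set). Celsr3, which guides the large forebrain axon tracts in the mouse, had 954 in the null and 978 in the wild-type library (-0.017). The first 2 lay somewhat above wild type and Celsr3 was level with it. Fat1, a giant cadherin at cell contacts, had 5157 in the null and 4810 in the wild-type library (0.12). Fat3 had 982 in the null and 1026 in the wild-type library (-0.044). Fat4, which binds Dchs1 and acts on cortical progenitors, had 2139 in the null and 2269 in the wild-type library (-0.067, and -0.092 by its other probe set). The Fat genes thus stayed within 1.09-fold of wild type.

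Their partners spread more widely. All 10 measured genes of planar polarity and of the Fat pathway were within 1.5-fold by their brightest probe sets, 6 above and 4 below 0, with a median of 0.094. Vangl1 was furthest at 0.37, Dvl1 was at -0.29 (0.52 by its other measured probe set), and Dchs1, the ligand of Fat4, at 0.14.

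Among the delta-1 protocadherins, larger non-clustered members with a phosphatase-binding motif in the tail, Pcdh11x had the largest negative difference of the measured members. It had 529 in the null and 796 in the wild-type library (-0.57), and its other probe set gave 353 in the null and 490 in the wild-type library (-0.45). Both probe sets were below wild type and both within 1.5-fold. Pcdh11x is X-linked. Of 395 measured X-linked genes, 3.04% were 1.5-fold lower and 2.28% higher, with a median difference of -0.0019, and 0 of the 2 X-linked members passed either line. The part of the Xist difference in the Pcdh11x value was not tested. Pcdh11x passed the lower line without the shift of the null array (-0.59), after quantile normalization (-0.63), after removal of a loess trend (-0.61) and without _s_at and _x_at probe sets (-0.59).

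Pcdh9 had 1208 in the null and 1507 in the wild-type library (-0.30, and 0.044 by its other measured probe set). Pcdh7 lay on the other side with 779 in the null and 589 in the wild-type library (0.42), but its other measured probe set gave -0.16. Pcdh1 was below the measured level at 79.3 in the null and 108 in the wild-type library (-0.42).

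The delta-2 protocadherins were all measured, 2 above and 3 below 0, with a median of -0.065 that turned to 0.30 when probe sets were averaged. Pcdh18 was highest, with 975 in the null and 726 in the wild-type library (0.44). Its second probe set gave 454 in the null and 313 in the wild-type library (0.56), and the dimmest, at the floor in wild type, was at least 2.27-fold higher (119 in the null and 6.79 in the wild-type library). All 3 probe sets of Pcdh18 were higher in the null library. With them averaged without a floor, Pcdh18 was at 1.68, the only measured member then beyond 1.5-fold, and the dimmest probe set carried most of that value.

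Pcdh17, which organises corticostriatal synapses, had 1481 in the null and 1211 in the wild-type library (0.31), and its other probe set 466 in the null and 268 in the wild-type library (0.82). Pcdh8, which takes part in the endocytosis of N-cadherin at rat synapses, had 2762 in the null and 3267 in the wild-type library (-0.22), with -0.31 by its other probe set. Both probe sets of each gene pointed the same way, up for Pcdh17 and down for Pcdh8.

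Pcdh19, an X-linked partner of N-cadherin whose human gene is linked to epilepsy, had 1533 in the null and 1774 in the wild-type library (-0.19), but 0.23 and 0.58 by its other measured probe sets. Pcdh10, which acts on axon growth, had 739 in the null and 783 in the wild-type library (-0.065), and 0.39 and 0.44 by its others. No direction can be given for these genes.

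Of the other non-clustered members, Pcdh20 had 510 in the null and 561 in the wild-type library (-0.12). Pcdh12, a protocadherin of endothelium, had 119 in the null and 161 in the wild-type library (-0.41), below the measured level, with 2 other probe sets at the floor. Endothelial markers lay the other way, 5 of 6 above 0 and 3 beyond 1.5-fold higher (Tie1 0.67, Cdh5 0.63 and Pecam1 0.60). Their summed signal was 4651 in the null and 4023 in the wild-type library, and their part in the Pcdh12 value was not tested.

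Cytoplasmic partners of protocadherins included 1 gene beyond 1.5-fold among 6 measured. Nckap1, a subunit of the WAVE actin regulator that Pcdh10 recruits, had 2940 in the null and 5060 in the wild-type library (-0.76, 1 probe set). Among the other subunits, Wasf1 was at -0.097. Abi1 was at 0.11, and from -0.36 to 0.13 by its other measured probe sets. Cyfip2 was at 0.051, and at 0.28 by its other one.

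Clustered protocadherins with a probe set of their own mostly lay below the measured level. They lie side by side on chromosome 18 in an alpha, a beta and a gamma cluster. Single-gene probe sets covered 22 beta genes and 1 gamma gene, and 6 of these 23 genes were measured. Pcdhb9 had 253 in the null and 368 in the wild-type library (-0.52), and Pcdhb20 had 329 in the null and 449 in the wild-type library (-0.43). Pcdhb3 had 187 in the null and 212 in the wild-type library (-0.16), Pcdhb7 218 in the null and 237 in the wild-type library (-0.10), and Pcdhb17 493 in the null and 489 in the wild-type library (0.030). Of the 5 measured beta genes 4 were below wild type, and none was beyond 1.5-fold. The single gamma gene, Pcdhgc4, on which interneuron survival depends in the mouse, had 369 in the null and 285 in the wild-type library (0.39).

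Over the whole beta cluster, 14 genes were above the floor on both arrays, 12 below 0 and 2 above, with a median of -0.27. Among all 14869 genes above the floor, 50.6% were below 0, and among those under the measured level 53.0%. Beta genes are close in sequence and can share probes, so these 14 values are not independent. Of the dimmer ones, Pcdhb19 and Pcdhb10 lay at -0.44 each, Pcdhb21 at -0.30 (-0.70 by its other probe set), Pcdhb22 at -0.29 and Pcdhb12 at -0.25. Pcdhb8 was at -0.15, Pcdhb2 at -0.13 and Pcdhb15 at 0.13. The lowest was Pcdhb16, under the measured level at 108 in the null and 196 in the wild-type library (-0.85), with -0.23 by its second probe set and the dimmest at the floor on both arrays. Among the genes with 1 array at the floor, Pcdhb5 was at least 2.42-fold higher (126 in the null and 26.6 in the wild-type library). Pcdhb11 was at least 1.34-fold lower and Pcdhb1 at least 1.19-fold lower, and 5 beta genes were at the floor on both arrays.

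**Figure D3:**
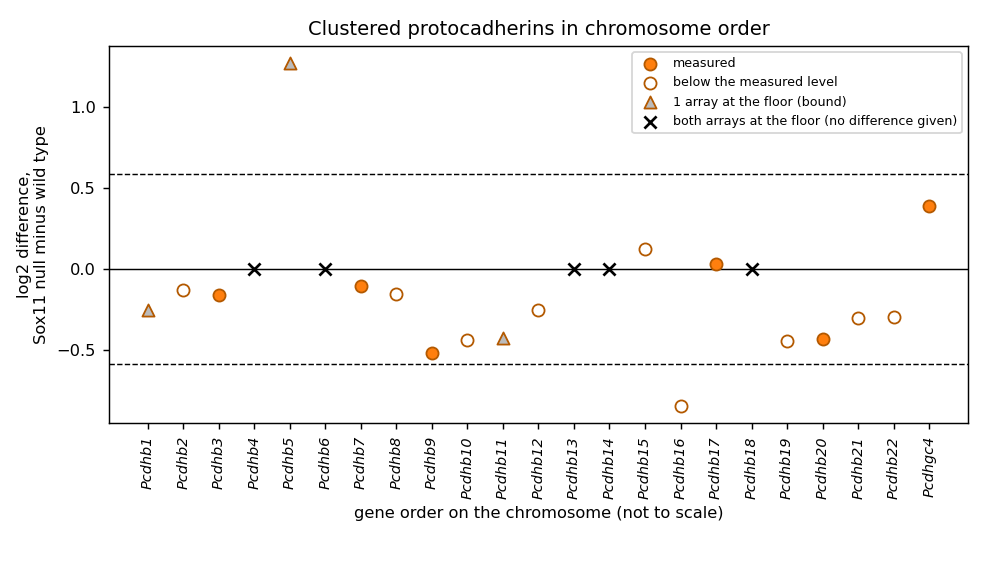
Log2 difference (Sox11 null minus wild type, vertical axis) of the 22 beta genes and Pcdhgc4 in their order along the chromosome, with dashed lines at 1.5-fold. Filled circles are measured genes, open circles dimmer ones, triangles bounds and crosses genes at the floor on both arrays. Of the 14 beta circles 12 lie below 0.

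Alpha protocadherins had no probe set of their own. The platform annotation names 6 probe sets for several protocadherins at once, 14 alpha genes in all, which share their 3' exons, and these were left out of the members. The brightest gave 2560 in the null and 3186 in the wild-type library (-0.30). The next gave 1029 in the null and 820 in the wild-type library (0.35), and the dimmest measured one 217 in the null and 167 in the wild-type library (0.39). The measured alpha probe sets thus disagreed in direction although each names the same 14 genes, and the other 3 were near the floor, at 61.9 or less in the null and 46.9 or less in the wild-type library.

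Genes that govern clustered protocadherins through chromatin were measured in 6 of 6 cases and within 1.5-fold. Ctcf, whose binding sites choose the promoters, was at 0.24 (2183 in the null and 1874 in the wild-type library). Its partner in loop formation, the cohesin subunit Rad21, was at 0.31 (from -0.27 to 0.72 by its other measured probe sets), and the silencing factor Smchd1 at -0.29.

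Taking every measured probe set of the members, 3 of 53 (5.66%) were 1.5-fold higher, those of Cdh13, Pcdh17 and Cdh2 described above, against 5.9% of all 19643 measured probe sets. None (0 of 53) was 1.5-fold lower, against 2.62%. All 3 were dimmer probe sets of their gene. Of the 19 measured probe sets of members that were not the brightest of their gene, 13 (68.4%) had a more positive difference than the brightest one, with a median excess of 0.15. Over all genes this held for 61.5% of 7669 such probe sets, with a median excess of 0.11. The arrays also differed in the beta-actin control, and less in the Gapdh control, both given above. The part of RNA or labelling quality in these values was not tested. Differences of probe sets of the same gene had a pooled SD of 0.27 over 16 members with several measured probe sets, and of 0.34 over 4839 such genes. Most single-gene differences of members were of this size or smaller. In 10 of the 16 members (62.5%) all measured probe sets had 1 sign, against 43.4% of the 4839 genes. The 16 members had 35 such probe sets and the 4839 genes 12508, which is more per gene. A shared sign is less likely with more probe sets, so these shares cannot be compared directly.

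**Figure D4:**
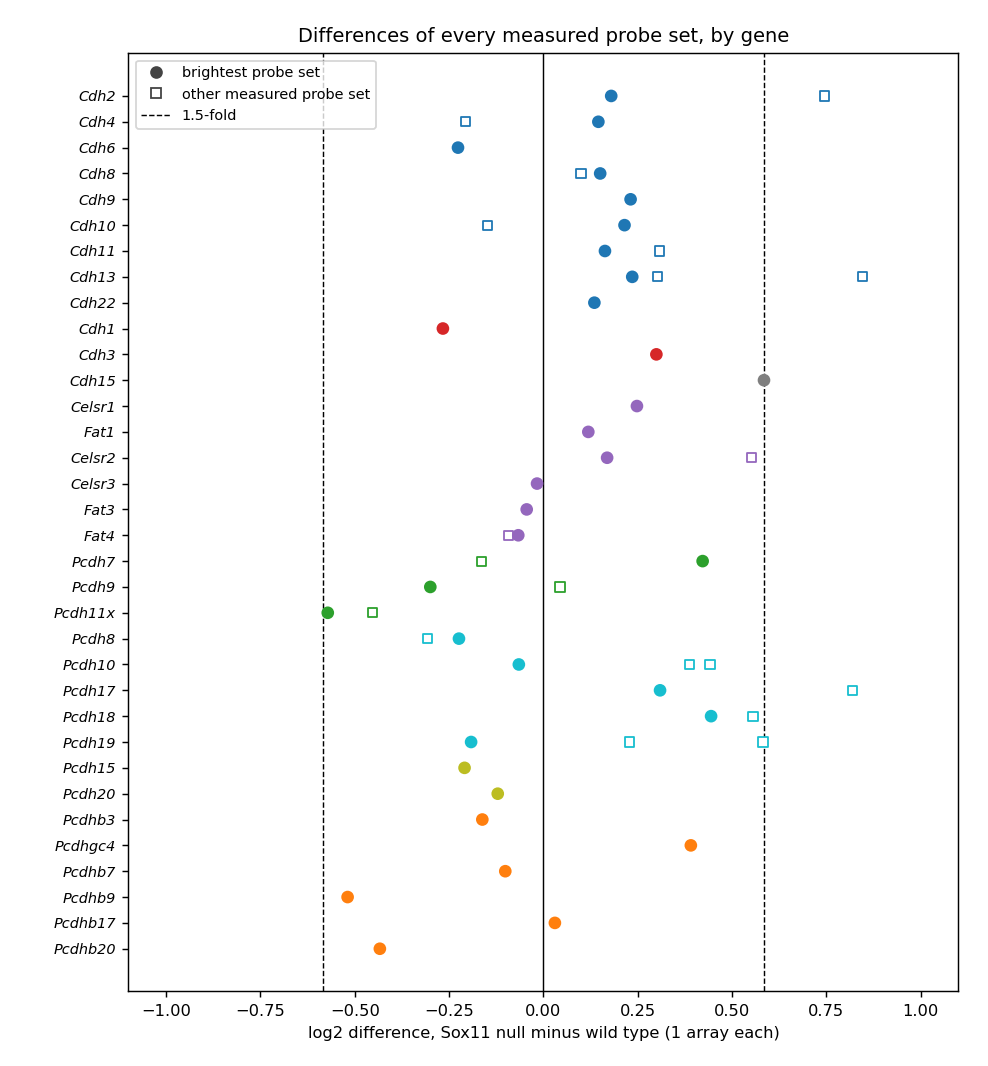
Log2 difference (Sox11 null minus wild type, horizontal axis) of each measured probe set of the 34 measured member genes, with the brightest as filled circles and the others as open squares. Dashed lines mark 1.5-fold. The squares of Cdh2, Cdh13 and Pcdh17 lie beyond the right line, and Cdh15 lies on it.

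On the cytoplasmic side of classical cadherins, 9 of 10 measured catenins and junction plaque genes were within 1.5-fold by their brightest probe sets, with a median of -0.051. Ctnnb1 (beta-catenin) had 14331 in the null and 15569 in the wild-type library (-0.10), although its other measured probe sets gave 0.49 and 0.93. The alpha-catenins Ctnna1 and Ctnna2, which join cadherins to actin, were at -0.23 and -0.094. Other measured probe sets lay beyond 1.5-fold for Pkp4 (0.82), Vcl (0.94) and Ctnnd1 (-0.66), whose brightest were at -0.0067, 0.19 and 0.31. Jup (plakoglobin), which adherens junctions share with desmosomes, was the exception, with 444 in the null and 894 in the wild-type library, 1.99-fold lower (-0.99, 1 probe set). The simple and basal epithelial markers had a median of -0.090. The part of epithelial cells in the Jup value was not tested. The 4 nectins, adhesion molecules that work beside cadherins, were between -0.094 and 0.13 by their brightest probe sets. Other measured probe sets of Nectin3 ran from -1.09 to 0.28, and that of Nectin2 was at 0.50.

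**Figure D5:**
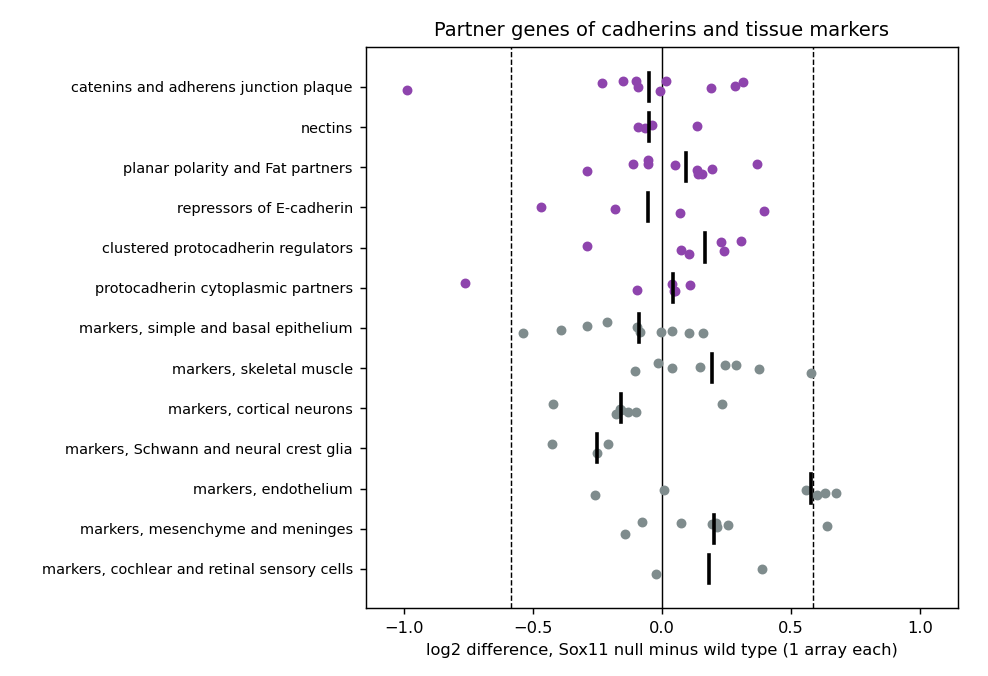
Log2 difference (Sox11 null minus wild type, horizontal axis) of measured genes in the lists of cadherin partners (purple) and of tissue markers (grey), with black bars at the list medians and dashed lines at 1.5-fold. Jup and Nckap1 lie beyond the left line, and of the markers 3 endothelial genes and Foxc2 lie beyond the right one.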

How the data were processed

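The authors deposited 1 linear signal intensity per probe set and array, made with Affymetrix Expression Console per the submitters' processing notes. The sources used here do not name the summary algorithm. Both deposited arrays have a mean of 500.002 after trimming 2% at each end. No detection calls were used, and the number of arrays limits the precision.

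Probe sets for controls (64) were not used. In the rest, 34945 named 1 gene, 932 several and 9160 none in the platform annotation. For 34741 of these the symbol was taken from a RefSeq table of GRCm38.p6, matched on gene ID. Intensities were taken to log2, the null array was shifted by its median difference over measured genes (-0.018), and values under the 25th percentile (52.5 in the null and 52.9 in the wild-type library) were raised to it. A gene at this floor on 1 array is given as a bound. The filter on the mean of both arrays treats both directions alike. The calculation was tested on simulated data (Python 3.11.15, pandas 2.3.3, statsmodels 0.14.6).

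Members and lists were chosen with earlier results of these data known. Every neural and epithelial cadherin, every measured member of the smaller subfamilies, the 5 measured clustered genes furthest each way and every member beyond 1.5-fold were named. Of partner and marker lists those beyond 1.5-fold were named with up to 3 others, or more where markers or probe sets disagreed. Of 11 alternatives the effects are given below. No test was possible with 1 array per genotype.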

Additional observations from a re-analysis of the deposited data

How the results depend on the processing

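The neural median kept its sign and stayed between 0.14 and 0.20 over the 11 alternatives. The number of measured members 1.5-fold lower, 0 as reported, was 1 without the shift, with quantile normalization, with the loess trend removed and without _s_at and _x_at probe sets (Pcdh11x in each). It was 2 with the filter met on at least 1 array (Cdh19 and Pcdhb16) and 4 with no filter. The number 1.5-fold higher, also 0, was 1 with that filter (Cdh15), 1 with all probe sets averaged (Pcdh18) and 2 with no filter (Cdh15 and Pcdhb5). The median over all measured members, 0.075, was -0.041 with no filter and -0.015 with the filter met on at least 1 array. The epithelial median, 0.017, was -0.26 with the filter at the 75th percentile and -0.30 with all probe sets averaged, where Cdh1 alone was left. Among all genes, no filter gave 796 lower and 722 higher, and the 75th percentile 98 and 94. With all probe sets averaged the sign turned for Cdh3 (-0.94), Cdh10 (-0.35), Cdh7 (-0.052), Pcdh10 (0.30), Pcdh19 (0.17) and Pcdh20 (0.15), and for the medians of the delta-2 (0.30) and the other non-clustered protocadherins (0.15, 1 gene left). The epithelial median was -0.0019 without the shift, and the Celsr and Fat median, 0.051, was -0.014 with the filter at the 75th percentile. In the group of Cdh15, Cdh19 and Cdh23 only Cdh15 was measured. The median of that group, 0.58, turned negative in 2 alternatives and reached -0.85. No paired analysis was possible because each genotype has 1 array. Dim signals limit the beta protocadherins most.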

Other observations

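The following cadherin superfamily genes outside the 61 members were chosen after their values were seen. The calsyntenins, transmembrane proteins with cadherin repeats that link cargo to kinesin, were measured in all 3 cases. Clstn1 had 5187 in the null and 4072 in the wild-type library (log2 difference 0.37), Clstn3 1001 in the null and 782 in the wild-type library (0.37) and Clstn2 1463 in the null and 1489 in the wild-type library (-0.0070). Cdhr1, the photoreceptor cadherin, had 328 in the null and 417 in the wild-type library (-0.33). Cdhr5 was beyond 2-fold higher, with 213 in the null and 97.2 in the wild-type library (2.22-fold), but lay below the measured level.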
